A study of Mus musculus with 34 samples.

Results

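Histone H3 lysine 4 monomethylation (H3K4me1) was compared between CTCF-WT and CTCF-KO bone marrow-derived dendritic cells (BMDCs) without stimulation. The comparison used all peaks of the deposited H3K4me1 list of each condition, 94694 in WT and 93525 in KO, together 188219 of the 1393623 peaks in the 30 lists of the series. Both groups were cells of C57BL/6 mice whose labels give 8 weeks, kept for 6 days in medium with GM-CSF, a growth factor for dendritic cells. Both carried CreER, a Cre recombinase that tamoxifen switches on, at the Rosa26 locus, and both received 4-hydroxytamoxifen on the first culture day. WT cells were CreER with intact Ctcf, and KO cells were CreER;CTCF fl/fl, so that only their loxP-flanked Ctcf alleles could be deleted. Floating cells were selected with CD11c beads. The labels did not name the animals behind each library. H3K4me1 lists of the same 2 genotypes after LPS (lipopolysaccharide, a bacterial ligand of TLR4; 100 ng/ml for 3 h), called WTLPS and KOLPS, were used for comparison.

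H3K4me1 is placed by the methyltransferases KMT2C and KMT2D at enhancers and at the shoulders of active promoters. It precedes H3K27ac at many enhancers and therefore marks poised as well as active elements, while H3K27ac marks the active ones. CTCF binds DNA through its zinc fingers and stops cohesin, a ring complex with the subunit SMC1, which extrudes chromatin loops. STAT5 is the transcription factor activated by the GM-CSF receptor through JAK2.

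Each condition had 1 list, without separate replicates, so no p-value is given. Intervals are 95% intervals that cover counting error only, and differences are descriptions of these 2 libraries. The lists hold no read totals. The number of fragments over a background base, recovered from short peaks, was 3.599 in WT, 4.00 in KO, 4.08 in WTLPS and 2.95 in KOLPS, so the KO library was not the shallower one of the unstimulated pair. Loss of the targeted protein was seen in the CTCF lists, where 14371 of 60537 WT CTCF peaks were overlapped by a KO CTCF peak. These 14371 are called kept, the other 46166 lost, and the 4694 KO CTCF peaks that met no WT peak are called KO alone. The same names are used for SMC1 and STAT5. The STAT5 lists came from cells given GM-CSF again for 15 min, a treatment that the H3K4me1, CTCF and SMC1 libraries did not have, so STAT5 comparisons set treated beside untreated cells of a genotype.

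Sites at which the H3K4me1 lists differed are shown as 61 bases centred on the summit of a CTCF or STAT5 peak (mm10, NCBI RefSeq genome GRCm38.p6, strand in parentheses). Capitals mark a CTCF core, which is CCA, any 2 bases, AG, any 2 bases and GGC, or a STAT5 motif, TTCNNNGAA. Each was taken from the strongest H3K4me1 peaks of its kind that held the motif, outside the chromosome 12 window described below. The first 2 lay in WT-only H3K4me1 peaks at CTCF peaks lost in KO, near Ctsd (chr7:142408106-142408166, - strand) and Zfp207 (chr11:80357129-80357189, + strand).
Ctsd site: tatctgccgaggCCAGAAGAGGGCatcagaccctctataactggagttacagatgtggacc
Zfp207 site: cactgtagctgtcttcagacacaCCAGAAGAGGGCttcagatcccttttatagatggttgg
The next 2 lay in KO-only H3K4me1 peaks that were also at lost CTCF peaks, near Smg6 (chr11:75007978-75008038, - strand) and Pou5f1 (chr17:35508431-35508491, + strand).
Smg6 site: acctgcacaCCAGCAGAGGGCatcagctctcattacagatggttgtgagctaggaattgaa
Pou5f1 site: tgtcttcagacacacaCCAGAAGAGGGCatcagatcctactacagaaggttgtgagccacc
The third pair lay in KO-only H3K4me1 peaks at kept CTCF peaks, near Rbm11 (chr16:75617777-75617837, + strand) and Mycbp (chr4:123898836-123898896, - strand).
Rbm11 site: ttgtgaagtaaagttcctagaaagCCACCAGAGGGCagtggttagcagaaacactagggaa
Mycbp site: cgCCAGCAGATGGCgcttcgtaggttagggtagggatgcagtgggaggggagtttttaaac
STAT5 sites are shown in a KO-only peak in an intron of Agbl4 (chr4:111091891-111091951, + strand) and in a WT-only peak in an intron of Gse1 (chr8:120377115-120377175, + strand).
Agbl4 site: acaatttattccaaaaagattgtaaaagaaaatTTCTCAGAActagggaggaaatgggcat
Gse1 site: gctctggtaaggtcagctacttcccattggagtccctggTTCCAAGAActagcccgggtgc
At the Ctsd site, 19957 bp from the start of this lysosomal protease gene and outside genes, the H3K4me1 peak was 535 bp wide in WT and covered no base in KO. The WT CTCF peak there had a fold enrichment over background of 25.1 and overlapped a WT SMC1 peak. At the other lost sites shown this fold was lower, at 4.22 (Zfp207), 6.33 (Smg6) and 6.46 (Pou5f1). The Zfp207 CTCF peak overlapped an SMC1 peak of KO and none of WT. Whether the sites shown lie in repeated sequence was not examined. At the Rbm11 site, outside genes and 23992 bp from the start, the KO-only peak was 2011 bp wide, and 1867 bp of it were covered in KOLPS and none in WT or WTLPS. At the Mycbp site, the 2964-bp KO-only peak lay 4680 bp from the Mycbp start, in the promoter window of another gene. This peak was partly covered in WTLPS (857 bp) and KOLPS (1108 bp). The Agbl4 peak, 2180 bp wide, overlapped STAT5 peaks of both genotypes, as did the Gse1 peak of 1946 bp, so at these 2 sites STAT5 binding was listed in both genotypes and H3K4me1 in 1. A WT-only peak of 453 bp near Stag1, not shown, differed, with a STAT5 peak in WT and none in KO.

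H3K4me1 covered fewer bases in KO than in WT, while the number of peaks was nearly equal. WT peaks covered 258.9 Mb (9.50% of the genome) and KO peaks 232.1 Mb (8.52%), a KO to WT ratio of 0.896, against a ratio of 0.988 for the number of peaks. Both lists covered 191.7 Mb and either list 299.3 Mb, a Jaccard index (bases in both over bases in either) of 0.641. In KO 74.0% of the WT bases were covered, and in WT 82.6% of the KO bases. Median peak widths were 1435 bp (WT) and 1366 bp (KO).

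Most of the bases covered in 1 genotype alone lay in peaks that the other genotype also had. Of 67.2 Mb covered in WT alone, WT-only peaks held 17.1 Mb (25.4%), and the other 50.1 Mb lay in overlapped peaks, 36.3 Mb at their ends and 13.8 Mb in gaps between KO peaks. Of 40.4 Mb covered in KO alone, KO-only peaks held 11.8 Mb (29.3%), the ends of overlapped peaks 22.3 Mb and gaps between WT peaks 6.27 Mb. An overlapped WT peak met 2 or more KO peaks in 8596 cases (12.2%), and an overlapped KO peak met 2 or more WT peaks in 4736 (6.25%). WT peaks were thus the longer partners and were more often split in KO than the reverse. The median overlapped WT peak was covered to 81.5% in KO, and the median overlapped KO peak to 93.8% in WT. Wholly covered were 13977 overlapped WT peaks (19.8%) and 27942 overlapped KO peaks (36.9%).

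A KO peak overlapped 70450 of the 94694 WT peaks by at least 1 bp (74.4%), which left 24244 WT-only peaks, 25.6% of the list. A WT peak overlapped 75720 of the 93525 KO peaks (81.0%), which left 17805 KO-only peaks, 19.0% of the list. For lists of equal bases, the WT list was cut by -log10 p to the covered bases of KO. This left 64507 WT peaks with a -log10 p of at least 2.99, while the KO list stayed whole (at least 2.33). These shares then exchanged their order, with 87.0% of WT and 67.2% of KO peaks overlapped. Which genotype had more peaks of its own therefore depended on the cutoff of each list. The overlap of bases did not, since the Jaccard index was 0.644 at equal bases.

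Peaks of 1 genotype alone were short and weak. WT-only peaks had a median width of 530 bp (quartiles 312 and 914) and KO-only peaks 495 bp (305 and 866), against 2083 bp and 1765 bp for overlapped peaks of WT and KO. The median fold over background was 2.33 in WT-only and 2.34 in KO-only peaks, and 2.68 and 2.62 in overlapped peaks. The share overlapped rose with strength in every step, from 36.2% in the weakest 10% of WT peaks by -log10 p to 99.0% in the strongest 10%, and from 49.1% to 98.2% in KO. It rose likewise with width. Among WT peaks at least 5 kb wide, 13307 of 13316 (99.9%) were overlapped, and among such KO peaks 11185 of 11198 (99.9%). Domains of 10 kb or more numbered 4211 in WT, where they held 27.5% of the covered bases, and 3244 in KO, where they held 22.8%. All 4211 of the WT domains met a KO peak, and 88.5% of their bases were covered in KO. Of the KO domains 3242 met a WT peak, and 95.1% of their bases were covered in WT. The widest WT domains lay at Srgap2 (105579 bp, of which 104568 bp were covered in KO) and Susd6 (88638 bp, of which 87183 bp in KO), and the widest KO domains at Asap1 (126303 bp, 123282 bp of them covered in WT) and Mbnl1 (102371 bp, 100291 bp in WT).

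**Figure D1:**
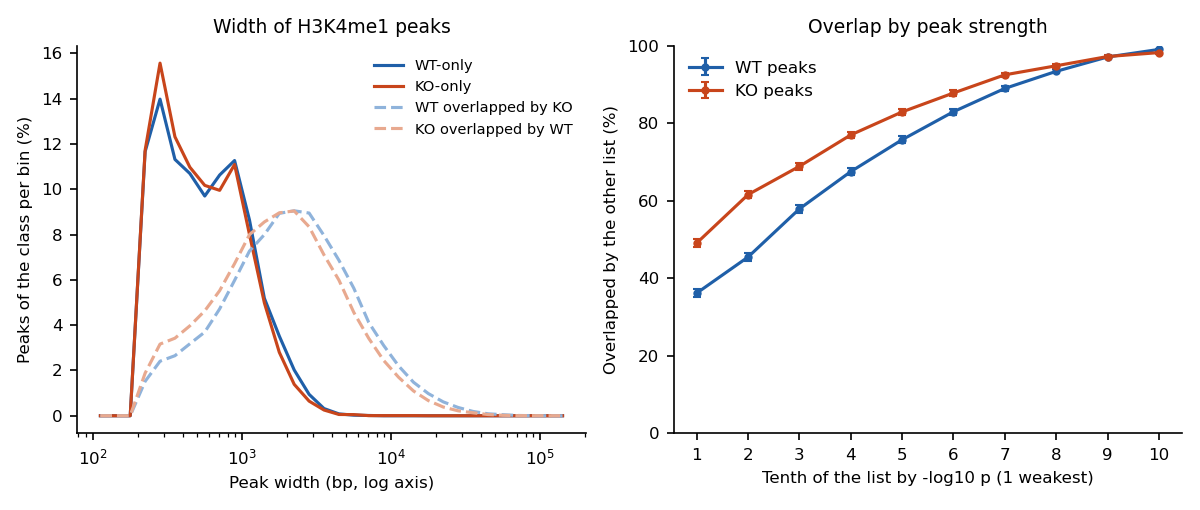
Left, the share of H3K4me1 peaks (%) by width (bp, log axis) for WT-only, KO-only and overlapped peaks; right, the share of peaks overlapped by the other list (%) in steps of 10% of the list by -log10 p, with 95% Wilson intervals. Single-genotype peaks sit at medians of 530 and 495 bp, and overlap climbs from 36.2% to 99.0% in WT and from 49.1% to 98.2% in KO.

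Most WT-only and KO-only peaks lay within 5 kb of H3K4me1 of the other genotype. Distances from random positions were not computed, so whether this is closer than the density of peaks gives was not tested. The median distance from a WT-only peak to the nearest KO peak was 2622 bp, and 67.7% were within 5 kb and 97.5% within 50 kb. For KO-only peaks the median distance to a WT peak was 2734 bp, with 63.3% within 5 kb and 94.0% within 50 kb.

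By location, WT-only peaks fell in promoters (within 2.5 kb of the start of a gene's longest transcript) in 16.2%, in exons in 9.90%, in introns in 43.3% and outside genes in 30.5%. KO-only peaks did so in 18.0%, 8.31%, 40.9% and 32.8%. The promoter share was lower in WT-only peaks by 1.78 points (difference -1.78, interval -2.51 to -1.05), and by less (-0.956) when every transcript start counted. Overlapped peaks were placed in promoters more often, in 29.6% of WT and 28.0% of KO peaks. More than 50 kb from any protein-coding start lay 36.0% of WT-only and 37.0% of KO-only peaks. WT H3K27ac peaks overlapped 6.32% of WT-only and 5.71% of KO-only peaks. KO H3K27ac peaks, which covered fewer bases (41.3 Mb against 60.9 Mb in WT), overlapped 3.14% and 3.95%. Overlapped peaks met H3K27ac of their own genotype more often, in 35.8% of WT and 29.5% of KO peaks. Among WT peaks of like width the gap between WT-only and overlapped peaks was smaller. Below 400 bp WT H3K27ac overlapped 4.19% of WT-only and 8.32% of overlapped peaks, and from 1 kb to under 2 kb 9.22% and 21.0%. WT H3K27me3, the mark of Polycomb repression, overlapped 12.02% of WT-only and 17.6% of KO-only peaks, a difference of -5.54 points (interval -6.24 to -4.85). A peak of any other mark or factor in WT or KO was present at 34.1% of WT-only and 41.9% of KO-only peaks, so most of the single-genotype peaks met no listed peak of another antibody in cells without LPS.

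CTCF peaks of WT cells overlapped KO-only H3K4me1 peaks more often than WT-only ones. They overlapped 9.17% of WT-only and 12.7% of KO-only peaks, a difference of -3.52 points (interval -4.13 to -2.91). The difference had the same sign within 250 bp of the peak centre (7.97% and 11.7%) and in each range of width below 5 kb. Among peaks narrower than 400 bp the shares were 7.78% and 10.3%, among those from 1 kb to under 2 kb 11.1% and 17.1%. Of the few peaks of 5 kb or more, 4 of 9 WT-only and 4 of 13 KO-only ones met a WT CTCF peak. KO CTCF peaks, which include the 4694 of KO alone beside the remaining binding, overlapped 2.55% of WT-only and 5.10% of KO-only peaks. Overlapped H3K4me1 peaks, which are wider, met a WT CTCF peak in 20.3% of WT and 18.5% of KO cases.

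SMC1 showed a smaller difference. WT SMC1 peaks overlapped 6.81% of WT-only and 8.29% of KO-only H3K4me1 peaks (-1.48 points, interval -1.99 to -0.964), and KO SMC1 peaks 2.14% and 3.27%. In the stronger 50% of each list the WT SMC1 difference was 0.744 points with an interval that spanned 0, and with lists of equal bases -0.962 points. STAT5 peaks met few single-genotype peaks. WT STAT5 peaks overlapped 0.285% of WT-only and 0.489% of KO-only peaks (-0.204 points, interval -0.332 to -0.0849), against 8.39% of overlapped WT peaks. Much of that gap went with width, since below 400 bp the shares were 0.200% in WT-only and 0.710% in overlapped WT peaks, and from 1 kb to under 2 kb 0.475% and 2.44%, while 27.5% of overlapped WT peaks of 5 kb or more met STAT5. KO STAT5 peaks overlapped 0.165% of WT-only and 0.809% of KO-only peaks. Of these 144 KO-only peaks, 19 lay in a single 1-Mb window of chromosome 12 described below, and the share outside it was 0.704%. Seen from the other side, 98.8% of WT H3K4me1 peaks with STAT5 were overlapped in KO, as were 93.0% of those with SMC1 and 86.5% of those with CTCF, against 72.7%, 68.3% and 71.8% of those without each factor.

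**Figure D2:**
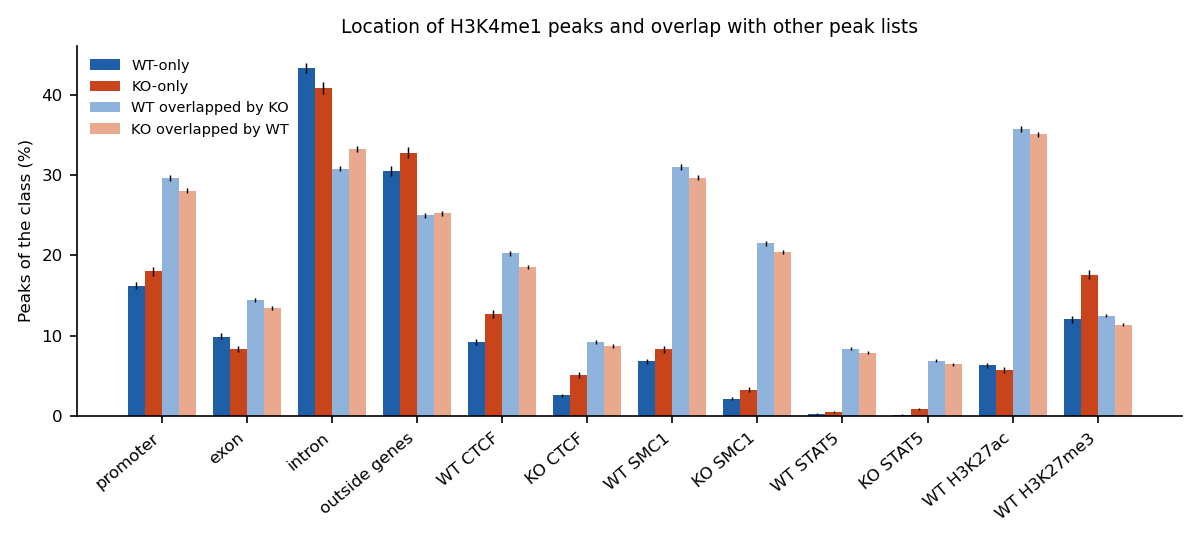
Share of H3K4me1 peaks (%) of each class by location and by overlap of at least 1 bp with other peak lists; bars are shares and whiskers 95% Wilson intervals. KO-only peaks meet a WT CTCF peak in 12.7% and WT-only peaks in 9.17%, and STAT5 is below 1% in both.

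The LPS lists give a second pair of libraries from the same genotypes. WT-only peaks were overlapped by a WTLPS peak in 44.9% and by a KOLPS peak in 10.9% (difference 34.0 points). KO-only peaks were overlapped by a KOLPS peak in 16.7% and by a WTLPS peak in 32.7%, so that they too were found more often in the WT genotype (-15.96 points). The KOLPS list was the smallest of the 4, with 148.6 Mb against 263.0 Mb in WTLPS. With both LPS lists and both unstimulated lists cut to equal bases, both directions turned, to -9.43 points for WT-only and 22.8 points for KO-only peaks. Neither LPS list held a peak at 51.8% of WT-only and 58.4% of KO-only peaks. Found in the LPS list of their own genotype and not in that of the other were 37.3% of WT-only and 8.86% of KO-only peaks, and in that of the other genotype alone 3.36% and 24.8%. Since that setting changed which peaks were WT-only and KO-only as well as the LPS lists, the part of LPS list size in these shares was not tested.

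Around kept CTCF summits, H3K4me1 coverage in KO was higher at the summit and lower from 2 kb away. Of the 14371 kept CTCF summits, 25.2% were covered by H3K4me1 in WT and 28.9% in KO (difference 3.74 points, interval 3.12 to 4.37, from the sites that changed). At 1 kb upstream the difference was 0.466 points with an interval that spanned 0, and at 2 kb upstream it was -1.01 points. At 5 kb upstream the shares were 21.7% and 19.6% (-2.09 points), so the summit and the positions from 2 kb away differed in sign. Positions away from summits were not measured with lists of equal bases, here and for SMC1 and STAT5, so the part of list size in this contrast was not tested. The difference at kept summits was 3.53 points outside promoters and 7.07 points with lists of equal bases. At the 46166 lost CTCF summits 24.2% were covered in WT and 23.4% in KO (-0.875 points, interval -1.16 to -0.588), with -2.08 points at 5 kb upstream. With lists of equal bases the difference at lost summits was 1.89 points, the opposite sign, and smaller than that at kept summits. In LPS-stimulated cells, kept CTCF summits were covered in 25.2% in WTLPS and 18.8% in KOLPS, while the position 5 kb upstream was covered in 22.1% and 12.6%.

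At SMC1 and STAT5 sites of WT cells the net shares covered were close in both genotypes, with turnover in both directions. The 21942 kept SMC1 summits were covered in 77.1% in WT and 76.2% in KO (-0.884 points), and the 41696 lost ones in 38.1% and 37.1% (-0.991 points). At kept SMC1 summits 1020 were covered in WT alone and 826 in KO alone, and at lost ones 2516 and 2103. The flanks differed more than the summits, by -4.50 points at 5 kb upstream of kept and -3.45 of lost SMC1 summits. The 5303 kept STAT5 summits were covered in 90.3% and 89.5% (-0.811 points), and the 2882 lost ones in 83.5% and 81.3% (-2.22 points, interval -3.37 to -1.07). With lists of equal bases all 4 of these summit differences were above 0, between 0.520 and 1.98 points. Of the lost STAT5 summits 2230 (77.4%) were covered in both genotypes, 176 in WT alone and 112 in KO alone.

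The 1559 STAT5 peaks of KO alone stood apart. Their summits were covered in 54.8% in WT and 65.6% in KO, a difference of 10.7 points (interval 8.68 to 12.7), with 223 sites covered in KO alone and 56 in WT alone. At 5 kb upstream the difference was 3.34 points. It was 13.8 points with lists of equal bases and 5.59 points without the 1-Mb window of chromosome 12 described below, so the value depended on that window. After LPS the same positions were covered in 54.6% in WTLPS and 53.9% in KOLPS. CTCF peaks of KO alone were covered in 74.5% and 75.4% (0.852 points) and SMC1 peaks of KO alone in 52.6% and 53.0% (0.409 points). Both of these were below 0 without that window, at -1.38 and -1.23 points.

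**Figure D3:**
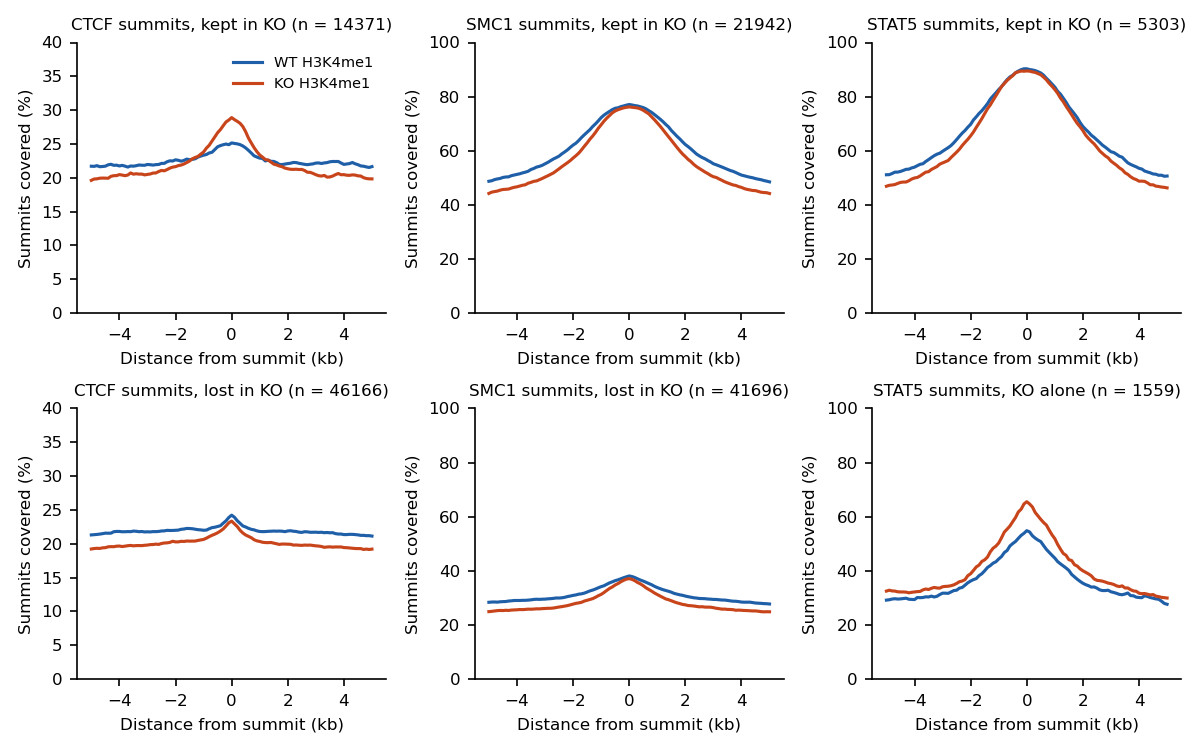
Share of CTCF, SMC1 and STAT5 summits (%) covered by H3K4me1 in WT (blue) and KO (orange) by distance from the summit (kb), for peaks kept in KO, lost in KO and present in KO alone; the vertical scale differs for CTCF. The KO line lies above WT at kept CTCF summits (28.9% against 25.2%) and at STAT5 summits of KO alone (65.6% against 54.8%).

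Counted per megabase, the same summits had the following densities, which divide them by territories of unlike size. Kept CTCF summits numbered 32.96 per Mb in bases covered in KO alone, 11.8 in bases of WT alone, 14.7 in bases of both and 3.88 in the rest of the genome. Lost CTCF summits numbered 51.8, 37.1, 45.3 and 13.6 per Mb. WT SMC1 summits were densest in bases covered in both, at 153 per Mb, with 72.5 in KO alone and 52.6 in WT alone, and WT STAT5 summits had 35.6 in both, 6.49 in KO alone and 5.49 in WT alone. Inside WT CTCF peaks H3K4me1 covered 11.8 Mb in WT and 12.3 Mb in KO (ratio 1.04), although the ratio over the genome was 0.896. Inside promoters the ratio was 0.919, inside WT H3K27ac peaks 0.958 and inside WT H3K27me3 peaks 0.999. Of all the regions measured, which did not include KO CTCF and KO SMC1 peaks, only WT CTCF and KO STAT5 peaks (1.03) had a ratio above 1. Inside KO STAT5 peaks H3K4me1 covered 2.62 Mb in WT and 2.69 Mb in KO. The chromosome 12 window described below, with 96.4 kb of KO STAT5 peaks, was not left out of this ratio.

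Sequence differed little between the classes. In the central 500 bp, on either strand, the CTCF core was found in 3.58% of WT-only (interval 3.35 to 3.82) and 4.49% of KO-only peaks (4.20 to 4.81), in 3.62% of overlapped WT peaks and in 2.65% of windows placed every 50 kb. The STAT5 motif TTCNNNGAA was found in 16.2% of WT-only and 18.0% of KO-only peaks, against 18.2% of the genome windows. GAGGAAGT, a motif of the myeloid factor PU.1, was found in 4.27% and 4.81%, below the 5.79% of overlapped WT peaks and above the 2.94% of the genome windows. TGTGGTT, read by RUNX factors, was found in 13.8% and 14.2% (genome 11.1%), the AP-1 motif TGANTCA in 16.2% and 16.9% (genome 14.4%), and the IRF motif (GAAA, any 2 bases, GAAA) in 8.75% and 8.77% (genome 8.26%). The C/EBP palindrome TTGCGCAA was found in 0.0578% of WT-only and 0.101% of KO-only peaks. The median GC content was 40.6% in both classes, 42.6% in overlapped WT peaks and 41.4% in the genome windows. Within 30 bp of the CTCF summit, the core was found at 17.4% of the 460 kept and 8.83% of the 691 lost CTCF summits in KO-only peaks, and at 14.2% of the 281 kept and 6.15% of the 813 lost summits in WT-only peaks. Over all WT CTCF summits it was found at 19.1% of kept and 9.57% of lost ones.

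Around genes, H3K4me1 was measured as the kilobases covered within 50 kb of the start of each protein-coding gene. Of 21938 genes, 16902 had at least 2 kb covered in WT or KO. The median gene had 18.7 kb in WT and 16.2 kb in KO, with a median ratio of 0.894, and 73.2% of genes were lower in KO and 26.8% higher. A difference of at least 2-fold was seen in 559 genes with less (3.31%) and 347 genes with more (2.05%) in KO. Such genes had little H3K4me1. The 559 genes had a median of 5.90 kb in WT and the 347 a median of 4.10 kb in KO, and of the 8095 genes with at least 20 kb, 29 had 2-fold less and 5 had 2-fold more. The balance depended on list size, with 212 genes less and 1032 more when the WT list was cut to the covered bases of KO. In the LPS pair 544 of the 559 (97.3%) were lower in KOLPS than in WTLPS, against 97.6% of all genes tested. Of the 347 genes with more in KO, 126 (36.3%) were also higher in KOLPS, against 2.36% of all genes tested.

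The 10 genes with the largest loss of covered bases, 1 per 200 kb, are described next. They were chosen for this difference, so their values are descriptions, given as covered kb around the start in WT, KO, WTLPS and KOLPS. Cebpa, a transcription factor needed for myeloid development, had 55.4, 34.1, 58.3 and 18.9 kb. Zbtb46, a transcription factor of classical dendritic cells, had 71.0, 49.8, 67.9 and 25.2 kb. Il12b, which encodes the p40 subunit of IL-12 and IL-23, had 68.4, 47.0, 63.0 and 39.5 kb. In these 3 genes each KO list was below both WT lists. Cdh1, encoding E-cadherin, had 72.6, 46.8, 72.2 and 28.8 kb. Cd5l, a secreted scavenger receptor protein of macrophages, had 54.2, 32.4, 52.7 and 21.2 kb. Socs6, of the suppressor of cytokine signalling family, had 60.8, 34.1, 66.0 and 29.3 kb. In all 6 genes KOLPS was the lowest list. Mfhas1 had 51.5, 27.2, 47.1 and 15.9 kb, and Ehbp1, of endocytic trafficking, 52.5, 31.6, 56.7 and 21.5 kb. Mid1, a ubiquitin ligase gene on chromosome X, had the largest difference, with 77.1, 38.3, 73.7 and 12.4 kb. AF067061 on chromosome 13 had 26.2, 3.86, 24.3 and 1.15 kb. Mid1 and AF067061 were the ones below a ratio of 0.5, at 0.497 and 0.147, and every one of the 10 kept its sign with lists of equal bases and in the stronger 50% of peaks.

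H3K27ac covered fewer kb in KO around 9 of these 10 genes, CTCF peaks were fewer around 9 and SMC1 peaks around all 10. Over the genome these lists were smaller in KO too, with 60.9 Mb of H3K27ac in WT and 41.3 Mb in KO, 14371 of 60537 CTCF peaks kept and 21942 of 63638 SMC1 peaks kept, so nothing particular to these genes is read from the counts. H3K27ac covered 14.3 kb in WT and 3.17 kb in KO around Socs6, 15.3 and 6.35 kb around Il12b, 25.9 and 11.2 kb around Zbtb46, 19.5 and 11.8 kb around Cebpa, and 12.1 and 2.74 kb around Cdh1. Mid1 was the exception, with little H3K27ac in either (0.463 and 0.724 kb). Around Cdh1, CTCF peaks numbered 11 (WT) and 2 (KO), and SMC1 peaks 14 and 6. Around Il12b there were 6 and 1 for CTCF and 10 and 5 for SMC1, around Cebpa 4 and 2 for CTCF and 14 and 6 for SMC1. Socs6 had no CTCF peak in either list, and 6 and 1 SMC1 peaks. STAT5 peaks numbered 6 and 3 at Cdh1, 1 and 3 at Il12b and none at Cebpa.

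The 10 largest gains were smaller, and between the LPS lists (KOLPS minus WTLPS) they lay between -5.77 kb and 7.52 kb, of either sign, while the 10 losses lay between -61.3 kb and -23.1 kb. Slamf1, encoding the receptor CD150, had 28.9 kb in WT, 47.2 in KO, 30.3 in WTLPS and 24.999 in KOLPS. Eed, a subunit of the Polycomb complex that methylates H3K27, had 40.4, 57.2, 39.9 and 44.8 kb. Slc35a5, of a family of nucleotide sugar transporters, had 49.8, 66.0, 54.5 and 48.7 kb. Of these 3 genes Eed alone was also higher in KOLPS. Hook1, a microtubule linker protein, had 14.5, 31.6, 14.2 and 19.9 kb. Dcun1d5, which acts in neddylation, had 28.6, 45.2, 32.0 and 35.6 kb. Trim43c had 3.62, 21.5, 4.21 and 11.7 kb. These 3 were higher in both KO lists. Agbl4, a carboxypeptidase acting on tubulin, had 0, 12.1, 0 and 6.30 kb, with no CTCF or SMC1 peak in its window in either genotype. Ms4a10 had 11.97, 28.1, 17.1 and 11.3 kb, and Znrf3, a ubiquitin ligase that removes Wnt receptors, 16.6, 29.4, 20.3 and 19.0 kb. Cpvl, a carboxypeptidase-like gene, had 21.3, 33.3, 19.1 and 16.01 kb. Slamf1, Slc35a5, Ms4a10, Znrf3 and Cpvl were lower in KOLPS than in WTLPS. With WTLPS alone cut, to the covered bases of KOLPS, all 5 were higher in KOLPS. AF067061 and Trim43c belong to families with near-identical copies, and whether reads that fit several copies entered peak calling is not given in the sources used here, where alignment with default settings is described and uniquely mapped reads are named for the signal tracks.

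**Figure D4:**
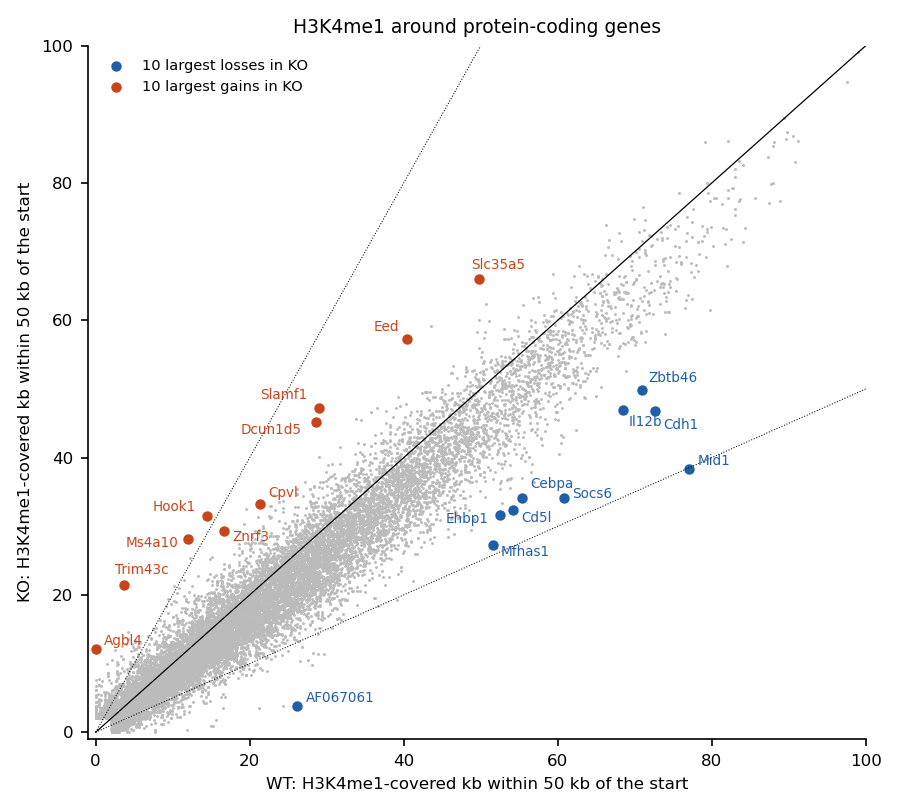
H3K4me1-covered kb within 50 kb of the start of each protein-coding gene, WT on the horizontal and KO on the vertical axis; named points are the 10 largest losses and gains, and the lines mark equal and 2-fold different values. Mid1 drops from 77.1 to 38.3 kb, and the median ratio over all genes is 0.894.

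Gene groups of dendritic cell function had median ratios from 0.831 to 0.945, on either side of that of all genes. In each group the share of genes lower in KO was above that of all genes (73.2%). Many of these genes had more H3K4me1 than the median gene (18.7 kb in WT). The groups were not set against genes of like coverage or measured with lists of equal bases, so nothing particular to them is read from this share. Of 19 myeloid and dendritic cell transcription factors, none passed 2-fold, 18 were lower in KO, and the median ratio was 0.898. Over all genes 3.31% had 2-fold less, 2.05% 2-fold more and 73.2% were lower, with a median ratio of 0.894, so a count of 0 in a list this short is near the background, here and in the groups that follow. Irf8 had 58.1 kb in WT and 47.2 kb in KO, Irf4 76.0 and 68.2 kb, Spi1 (PU.1) 39.6 and 37.5 kb, and Runx1 69.4 and 69.3 kb. The 21 genes of the TLR pathway had a median ratio of 0.887 with 20 lower, and the 11 NF-κB subunits and inhibitors 0.831 with 10 lower. Among these, Tlr4 had 70.8 and 58.3 kb, Rela 18.9 and 13.3 kb, and Nfkbib, an inhibitor, 18.2 and 9.53 kb. The 18 inflammatory cytokines and chemokines had a median ratio of 0.874 with 16 lower. The 13 genes of antigen presentation and costimulation had 0.925 with 10 lower, and the 13 genes of GM-CSF receptor signalling and STAT5 targets 0.945 with 10 lower. In the last group Csf2rb, the shared receptor chain, had 61.2 and 56.6 kb, Jak2 70.9 and 71.6 kb, and Cish, a STAT5 target, 61.8 and 64.8 kb. No gene of the groups in this paragraph passed 2-fold in either direction.

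Of 10 cohesin and CTCF genes, Smc1a on chromosome X had 2-fold less, with 5.02 kb in WT, 1.88 in KO, 2.60 in WTLPS and 2.70 in KOLPS, and the median ratio was 0.889. Ctcf itself had 29.8 and 25.7 kb in WT and KO. Of 10 cell cycle genes, Cdk1, the kinase that starts mitosis, had 2-fold less (7.66, 1.30, 8.38 and 0.290 kb), and the median ratio was 0.858. The 8 genes listed for H3K4 methylation had a median ratio of 1.01, with 4 higher and 4 lower, among them Kmt2c (45.8 and 41.8 kb) and Kmt2d (11.2 and 12.6 kb). The list also held Kdm6a (45.5 and 47.5 kb), whose product does not itself write or erase H3K4 methylation. Aldh1a2, a retinoic acid enzyme, and Chst3, a sulfotransferase, which the study singled out for loops gained in KO on the same cells, had 36.5 and 47.3 kb and 31.8 and 41.5 kb. They were chosen by the study with these samples and are not independent evidence of a direction.

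Markers of dendritic cells were covered in both genotypes, with a sum over 8 genes of 422 kb in WT and 377 kb in KO. Itgax, which encodes CD11c, had 60.4 and 42.2 kb, H2-Aa 68.8 and 66.4 kb, and Ccr7 44.9 and 47.4 kb. Macrophage markers (8 genes) summed to 346 and 310 kb, neutrophil markers (9 genes) to 216 and 184 kb, progenitor markers (6 genes) to 114 and 107 kb, and mast cell and basophil markers (4 genes) to 56.5 and 53.9 kb. T cell markers (7 genes, Bcl11b at 0 in both) summed to 160 and 138 kb, B cell markers (5 genes) to 51.0 and 52.8 kb, and erythroid and megakaryocyte markers (4 genes) to 35.8 and 25.9 kb. Windows of 50 kb also hold elements of neighbouring genes, so the sums do not measure cells. Ebf1 (2.01 and 5.59 kb) and Cpa3 (1.73 and 5.26 kb) had 2-fold more in KO, and Gata1 had 1.15 and 0 kb. The part of cell composition in the differences was not tested, and fewer cells of a type and less mark per cell cannot be told apart.

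Chromosome X had the lowest KO to WT ratio apart from Y, on which each list had 3 peaks. Covered bases on X were 4.24 Mb in WT and 3.29 Mb in KO, a ratio of 0.776, while the autosomes lay between 0.873 and 0.923. On X 39.0% of WT peaks were WT-only and 24.9% of KO peaks KO-only. Of 420 genes tested on X, 91 had 2-fold less (21.7%), against 2.84% of the other genes, and 10 had 2-fold more. After LPS the KOLPS to WTLPS ratio was 0.354 on X and between 0.537 and 0.587 on the autosomes.

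KO-only bases were spread over the genome, and the 3 1-Mb windows with the most, picked for this after the values were seen, held a small part of the 11.8 Mb. The leading one, chr12:115000001-116000000, lies in the immunoglobulin heavy chain (Igh) variable region and holds 58 variable segments and no protein-coding gene. It had 43 KO-only peaks covering 77.4 kb, against a median of 4.79 kb per window. H3K4me1 covered 281 kb of it in WT, 410 kb in KO, 290 kb in WTLPS and 360 kb in KOLPS. It held 17 of the 45 KO-only peaks with a -log10 q of at least 4, and 1 of the 33 such WT-only peaks. This window also had more peaks of every other antibody in KO. The other 13 WT lists, LPS included, had 0 to 75 peaks there (median 6), and the other 13 KO lists 23 to 222 (median 107). STAT5 peaks, for example, numbered 5 in WT and 150 in KO, CTCF peaks 75 and 188, p65 (RelA) peaks 0 and 49, and H3K4me3 peaks 0 and 23. Since peaks of every antibody moved with the genotype there, the H3K4me1 values of this window cannot be told apart from a difference common to all libraries, and input coverage was not analysed here.

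The next 2 windows, chr4:110000001-111000000 and chr4:111000001-112000000, behaved otherwise. They span Elavl4, Agbl4 and neighbours and had 40 and 39 KO-only peaks. H3K4me1 covered 3.34 kb in WT, 62.2 in KO, 3.86 in WTLPS and 34.7 in KOLPS in the first, and 24.4, 89.5, 21.8 and 58.0 kb in the second. In the first window the other 13 lists of each genotype had 0 to 14 peaks (WT) and 0 to 24 peaks (KO), with medians of 3. H3K27ac peaks there numbered 3 in WT and 16 in KO and H3K27me3 peaks 14 and 24, while CTCF peaks numbered 7 and 4 and SMC1 peaks 7 and 3, so the antibodies did not move together as in the Igh window. The leading windows of WT-only bases held less. Among them, chr2:16000001-17000000 with Plxdc2 had 31.8 kb of WT-only bases (H3K4me1 338 kb in WT and 239 kb in KO) and chr16:65000001-66000000 with Vgll3 had 31.3 kb (144 and 95.4 kb), against a median of 7.10 kb per window.

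**Figure D5:**
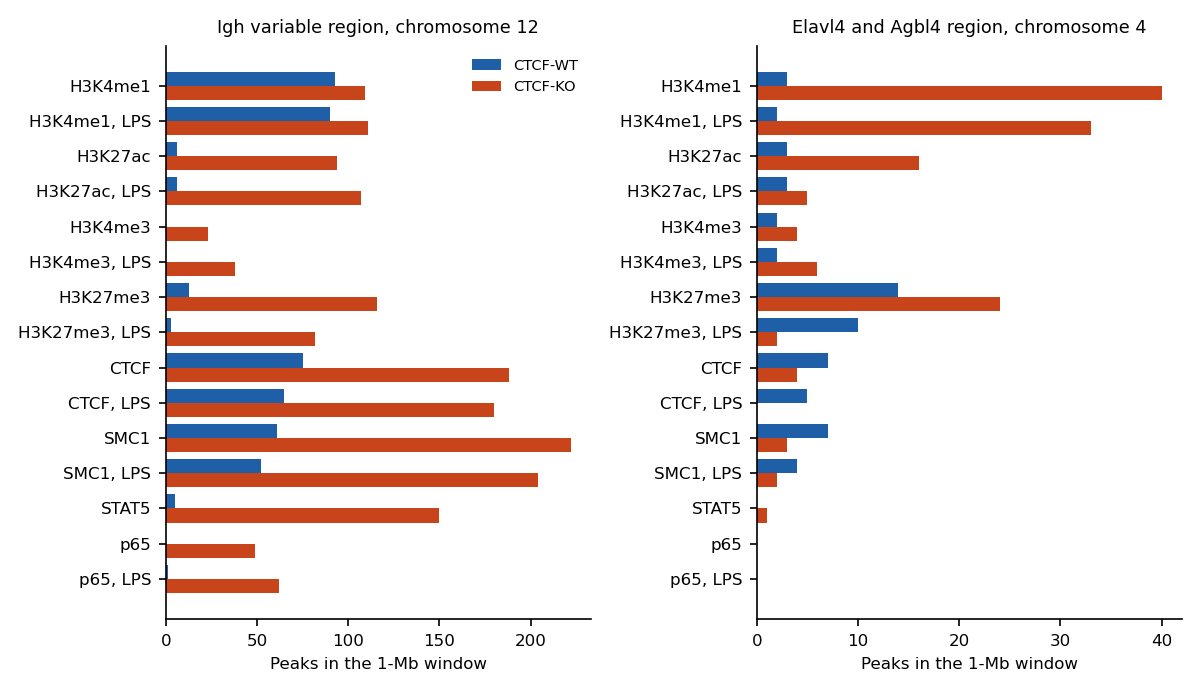
Number of peaks in 1-Mb windows for each antibody, WT in blue and KO in orange, in the Igh window of chromosome 12 and the leading chromosome 4 window. In the Igh window KO lists hold 23 to 222 peaks of the other antibodies and WT lists 0 to 75, while in the chromosome 4 window H3K4me1 stands out.

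Of the widest and strongest single peaks, some lay in the Igh window or at Agbl4 and others elsewhere. The widest KO-only peak, chr12:115629457-115643087, was 13631 bp wide near Ighv8-12, with a fold of 4.48, and 11945 bp of it were covered in KOLPS and none in WT or WTLPS. The next were a 10749-bp peak over exons of Trim43c (chr9:88841741-88852489, fold 2.66, 8415 bp in KOLPS) and a 9709-bp peak in an intron of Agbl4 (chr4:110995979-111005687, fold 3.14, 7436 bp in KOLPS). The remaining 2 of the widest 5 lay at Ighv8-5 and Ighv1-76 and were 7581 and 5895 bp wide. By -log10 q, 4 of the 5 strongest KO-only peaks lay in the Igh window, between 11.6 and 16.4. The strongest, 10947 bp from the start of Shisa2 (chr14:59614111-59614361), was 251 bp wide with a -log10 q of 26.9, overlapped a WT CTCF peak and was in neither LPS list. The widest WT-only peaks were narrower. They lay 73683 bp from Vgll3 (chr16:65734326-65741574, 7249 bp), 507 bp from Ighv1-48 (7109 bp), 41066 bp from Asb4 (6728 bp), 25082 bp from Tsc22d3 on X (6091 bp) and 44020 bp from BC067074 (5770 bp). Each of these 5 was covered over at least 3440 bp in WTLPS and over none in KOLPS. The strongest WT-only peaks were 216 to 493 bp wide. They lay 34602 bp from the start of Cdk2ap1 (-log10 q 18.4), 48293 bp from Fbxo47 (14.7), 525 bp from Mid1-ps1 on Y (8.995), 23639 bp from Phax (8.06) and 406 bp from Ighv1-78 (6.69). The WT-only peaks near Ighv1-48 and Ighv1-78 lay in the Igh window, which thus held peaks of either genotype alone.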

How the data were processed

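The study made 2 biological replicates per condition. Its methods describe peak calling per sample and replicate, while the study says elsewhere that replicates were combined and processed again. Neither passage names the H3K4me1 lists, of which 1 per condition was deposited. The submitters' processing notes name BWA 0.7.12, Picard 1.77, MACS2 2.1.2, deepTools 3.1.3 and mm10, and versions in the study's methods differ. The authors deposited H3K4me1 peaks in the 9-column broad layout, although the methods do not describe broad calling for this mark. Peak names carry "CST", while labels and methods name an Abcam antibody. The values deposited by the authors with a peak are a fold enrichment (ratio of pileup to background) and the −log10 p-value and q-value, averaged over the region, and a score derived from these, which was not used. No per-sample columns were left out.

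From these lists, bases, overlaps of at least 1 bp, locations (GENCODE vM21), motifs and gene windows were computed with Python 3.11.15, numpy 2.4.6, pandas 2.3.3 and scipy 1.17.1, with samtools 1.23.1 and matplotlib 3.10.9. Shares have Wilson, differences of shares Newcombe intervals. The interval functions were tested on simulated data. Background coverage was solved from peaks whose −log10 p was met within 0.002. A gene was called at 2-fold. Named were the 10 genes per direction with the largest difference in bases, 1 per 200 kb without predicted genes, the 5 widest and 5 strongest peaks per class, and list members past 2-fold; other list members were named after their values were seen. Members and lists were chosen with earlier results of these data known. Alternatives were stronger peaks, equal covered bases, 50% cover, merging within 1 kb, other promoter and gene windows, and leaving out X and Y or the chromosome 12 window.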

Additional observations from a re-analysis of the deposited data

Results flagged for a closer look

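In 5 of the genes with the largest gains, the difference between genotypes had the opposite sign in the LPS lists. H3K4me1 in KOLPS minus WTLPS was -5.34 kb at Slamf1 (18.3 kb without stimulation), -5.75 kb at Slc35a5 (16.2 kb), -5.77 kb at Ms4a10 (16.1 kb), -1.24 kb at Znrf3 (12.7 kb) and -3.13 kb at Cpvl (11.97 kb). The difference between the stimulations was not tested, since each condition had 1 list. With WTLPS alone cut, to the covered bases of KOLPS, the values were 20.3, 9.32, 1.84, 5.17 and 9.85 kb, so the opposite sign was seen with the lists as deposited.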

How the results depend on the processing

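No paired analysis was possible because each condition had 1 list and all carry replicate number 1. With the stronger 50% of each list, the Jaccard index was 0.634, overlap 71.4% of WT and 77.0% of KO peaks, the WT-only minus KO-only share 0.744 points for SMC1 (reversed, with an interval that spans 0) and -0.0260 for STAT5, the LPS differences 27.1 and -13.1 points, and 1593 genes had 2-fold less and 609 more. Lists of equal bases had WT cut to 64507 and WTLPS to 22649 peaks, with KO and KOLPS left whole. The values were 0.644, 87.0% and 67.2%, -0.381 points for STAT5, LPS differences of -9.43 and 22.8 points (both reversed), and 212 and 1032 genes. KO minus WT at summits was then 7.07 (CTCF kept), 1.89 (lost, reversed) and 4.28 points (KO alone), 0.829, 1.98 (both reversed) and 3.92 for SMC1, and 1.09, 0.520 (both reversed) and 13.8 for STAT5. Without X and Y the index was 0.644 and WT overlap 74.7%, and with peaks merged within 1 kb 0.649 and 75.05%. At 50% cover, overlap was 59.8% and 70.1%, the SMC1 difference -0.543 points and the LPS difference of KO-only peaks -19.1. The promoter difference was -0.956 with every transcript start, genes with 2-fold less numbered 847 in 20-kb windows, and without a minimum 950 had less and 890 more. Outside promoters the CTCF KO-alone difference was 1.92 points. Without the chromosome 12 window it was -1.38 and that of SMC1 -1.23 (both reversed), and that of STAT5 5.59. Equal-base summits and gene values, stronger-peak gene values and the chromosome 12 setting were added after seeing the data. Under the remaining settings, 49 values stayed within their interval or within 1.5 times their count. The cause of these changes was not tested. Read totals given with the study place KO above WT and KOLPS lowest, in the order of the background coverage of each pair, and weak peaks, which make up most single-genotype peaks, are the least certain.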
